A study of Mus musculus with 16 samples.

Results

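A set of distal binding sites of the EWSR1::ATF1 fusion (EA1) that also carried RNA polymerase and histone acetylation was examined in the mouse model of clear cell sarcoma (mCCS). A site was counted when its V5 peak touched no window within 3 kb of a transcription start site (TSS) of GENCODE vM21 on mm10 and shared at least 1 bp with an RNAPOL2 peak and with an H3K27ac peak. These sites are called triple sites below. There were 1142 of them among 10665 V5 peaks, or 18% of the 6335 distal V5 peaks, a share that the overlap rule itself fixes. The deposited V5 list holds fewer sites than the study's text counts, and its text counts more V5 and RNAPOL2 samples than the labels list, so shares and ranks here hold for the deposited lists.

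All tumours carried the same genotype. A V5-tagged human type 1 EWSR1::ATF1 was expressed from the Rosa26 promoter on a mixed 129/SvJ and C57Bl/6 background after injection of TATCre, a soluble Cre recombinase that enters nuclei, into the hindlimb. The labels give 4 chromatin samples for V5, 4 for RNAPOL2 (phosphorylated RNA polymerase II), 4 for H3K27ac and 4 for input, with no untreated or fusion-free group. Each antibody had 1 deposited peak list and no values per sample, so regions and not tumours were the units, all tests describe the lists, and neighbouring peaks were not independent. The tumours were ground whole, and V5 marks recombined cells only, whereas RNAPOL2 and H3K27ac chromatin comes from every cell of the tumour. Whether the 3 signals of a site came from the same cells therefore cannot be told apart. Promoter peaks of RNAPOL2 were found at 0 of 10 skeletal muscle genes (H3K27ac 0 of 10), 1 of 8 immune genes (H3K27ac 6 of 8) and 3 of 7 endothelial genes (H3K27ac 5 of 7). Of 13 melanocyte and clear cell sarcoma markers, 2 had an RNAPOL2 and 5 an H3K27ac promoter peak. The share of all coding genes with such peaks is not given beside these counts, so whether they are low or high cannot be told.

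EWSR1::ATF1 joins the amino-terminal part of the RNA-binding protein EWSR1 to the leucine zipper DNA-binding domain of ATF1. ATF1 belongs to the CREB family, which binds the palindrome TGACGTCA and its shorter core TGACG and responds to cyclic AMP signalling. Active enhancers carry H3K27ac on their flanking nucleosomes, and many also recruit RNA polymerase and are transcribed into short enhancer RNAs. A polymerase peak away from promoters may also lie on an elongating gene or on a start that the annotation does not hold.

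The sequences below show what lay under the strongest triple sites. For each motif class, 2 of the 3 sites with the highest V5 score that held the motif within 100 bp of the peak middle are given as the central 200 bp of the peak, plus strand of GRCm38 (mm10), with the motif in capitals. Sequence from 1 chromosome is not used here, which passes over a site near Afap1l1 that held the palindrome (V5 score 4906, rank 75) and a site near Gypc that held a variant and a string (V5 score 8993, rank 17). Among the others, the full ATF/CREB palindrome TGACGTCA lay near the middle of an intronic site of Mfhas1 (V5 score 4768, rank 80 of all V5 peaks) and of an exonic site of Pde4d, which encodes a cyclic AMP phosphodiesterase (V5 score 4404, rank 90).
Mfhas1, chr8:35616046-35616245: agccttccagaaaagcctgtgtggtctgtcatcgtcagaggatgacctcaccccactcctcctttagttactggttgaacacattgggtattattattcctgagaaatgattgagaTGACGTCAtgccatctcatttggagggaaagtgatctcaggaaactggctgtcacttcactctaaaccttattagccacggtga
Pde4d, chr13:109761076-109761275: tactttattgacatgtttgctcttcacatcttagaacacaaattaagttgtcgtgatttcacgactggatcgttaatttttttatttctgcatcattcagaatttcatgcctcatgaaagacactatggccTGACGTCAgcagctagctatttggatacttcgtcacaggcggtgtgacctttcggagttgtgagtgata

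Variants of the palindrome, TGANNTCA with another interior, are shown by an intronic site of Aagab (V5 score 9587, rank 14) and an intronic site of Creb5, a CREB family gene (V5 score 8718, rank 19).
Aagab, chr9:63611351-63611550: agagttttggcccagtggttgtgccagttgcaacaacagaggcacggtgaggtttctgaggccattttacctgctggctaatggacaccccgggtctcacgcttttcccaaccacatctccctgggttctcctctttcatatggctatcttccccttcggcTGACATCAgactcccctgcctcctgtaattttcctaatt
Creb5, chr6:53562921-53563120: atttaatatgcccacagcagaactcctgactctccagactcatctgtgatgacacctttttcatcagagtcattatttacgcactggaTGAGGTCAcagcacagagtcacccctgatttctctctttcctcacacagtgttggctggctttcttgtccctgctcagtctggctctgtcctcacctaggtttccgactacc

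The AP1 motif TGAGTCA, which FOS and JUN proteins bind, was led by an intergenic site 140930 bp from Gpam (V5 score 9378, rank 16) and an intergenic site 82205 bp from Rgs2 (V5 score 7133, rank 31). It is read as TGACTCA on the strand shown for Gpam.
Gpam, chr19:54958421-54958620: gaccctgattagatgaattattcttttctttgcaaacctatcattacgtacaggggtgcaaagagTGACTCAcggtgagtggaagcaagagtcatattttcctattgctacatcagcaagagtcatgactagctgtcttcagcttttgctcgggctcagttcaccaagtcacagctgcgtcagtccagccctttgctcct
Rgs2, chr1:144086266-144086465: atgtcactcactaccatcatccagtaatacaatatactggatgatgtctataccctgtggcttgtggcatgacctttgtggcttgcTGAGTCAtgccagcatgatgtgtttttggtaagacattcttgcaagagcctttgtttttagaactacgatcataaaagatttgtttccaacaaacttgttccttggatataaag

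Strings of more than 4 TGA or TCA triplets with gaps of at most 5 bp are shown by intergenic sites whose nearest coding genes were Scgn (V5 score 12740, rank 7) and Mdfic (V5 score 7549, rank 28). The triplets are in capitals, and each string held 6.
Scgn, chr13:23950311-23950510: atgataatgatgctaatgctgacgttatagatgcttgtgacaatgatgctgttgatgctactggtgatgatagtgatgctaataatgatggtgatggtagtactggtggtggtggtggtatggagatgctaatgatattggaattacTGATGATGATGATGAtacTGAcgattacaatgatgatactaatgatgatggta
Mdfic, chr6:15952121-15952320: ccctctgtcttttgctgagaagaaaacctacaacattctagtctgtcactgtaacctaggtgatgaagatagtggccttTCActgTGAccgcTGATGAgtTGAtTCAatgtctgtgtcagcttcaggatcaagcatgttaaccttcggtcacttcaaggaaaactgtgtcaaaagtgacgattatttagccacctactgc

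The 2 triple sites with the highest V5 scores held none of these motifs anywhere in the peak. Both held TGA triplets, but in no run of more than 4 with gaps of at most 5 bp, the cut-off for a string. They lay in introns of Arfgef3 (V5 score 17293, rank 3) and Tmem182 (V5 score 14422, rank 4). Their centres were tandem repeats in which the word TGATG, capitalised here, recurred 6 and 19 times. The Arfgef3 window held a stretch of 79 bp with a period of 12 bp, and Tmem182 one of 45 bp with a period of 22 bp.
Arfgef3, chr10:18705716-18705915: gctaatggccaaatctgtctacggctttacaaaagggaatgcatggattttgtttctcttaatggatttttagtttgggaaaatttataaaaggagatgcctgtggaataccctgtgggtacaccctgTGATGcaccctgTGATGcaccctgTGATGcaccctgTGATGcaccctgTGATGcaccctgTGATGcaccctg
Tmem182, chr1:40812171-40812370: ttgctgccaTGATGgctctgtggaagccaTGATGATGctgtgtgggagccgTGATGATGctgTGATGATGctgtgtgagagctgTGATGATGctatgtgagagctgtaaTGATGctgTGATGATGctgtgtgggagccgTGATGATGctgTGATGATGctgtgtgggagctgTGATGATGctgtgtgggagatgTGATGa

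Such repetition of TGATG or its complement was rare. Over all triple sites the median count in the central 200 bp was 0 and the upper quartile 1, and 11 of 1142 sites (0.963%, 95% Wilson interval 0.539 to 1.72) held at least 6, these 2 included. The share was 1.68% (1.26 to 2.23) among distal V5 peaks with H3K27ac and no RNAPOL2 and 3.84% (3.15 to 4.68) among those with neither mark. This word was chosen after the sequences had been seen, and no test was made.

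V5 scores of the triple sites ranged from 28 to 17293, and 50% of them lay between 142 and 860 around a median of 329.5. The score is the authors' whole-number peak score, of unstated scale, and is comparable only within a list. The median was 289 for the 2740 distal V5 peaks with H3K27ac alone and 217 for the 2421 with neither mark. V5 peaks in the upper 25% of the distal scores (523 or more) made up 37.1% of the triple sites (424; 34.4 to 39.97) and 30.99% of the H3K27ac-only sites (29.3 to 32.7). The odds ratio was 1.32 with a 95% interval of 1.14 to 1.52, and Fisher's exact test gave p = 0.000418 after Benjamini-Hochberg adjustment over 16 tests. When both mark lists were restricted to the upper 50% of their scores, 266 triple sites were left. They were compared with the 964 sites that had H3K27ac of that strength and touched no RNAPOL2 peak of any score, a comparison added after the data had been seen, and this direction turned (odds ratio 0.676, 0.506 to 0.904, adjusted exact p = 0.0146). The sites of these 2 sets are called the strong-mark sets below.

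The 1142 sites were not evenly spread over V5 scores. Distal V5 peaks were divided by score into 5 bins of 1267 peaks. Triple sites made up 19.4% of the lowest bin, 11.2% of the middle bin and 29.4% of the highest bin. Of the 100 V5 peaks with the highest score in the whole list, 71 were distal and 47 were triple sites. Peak width moved with score (Spearman's rho 0.692 over the 1142 sites, a description), and wider peaks touch other peaks more easily. The part of width in these shares was not tested.

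**Figure D1:**
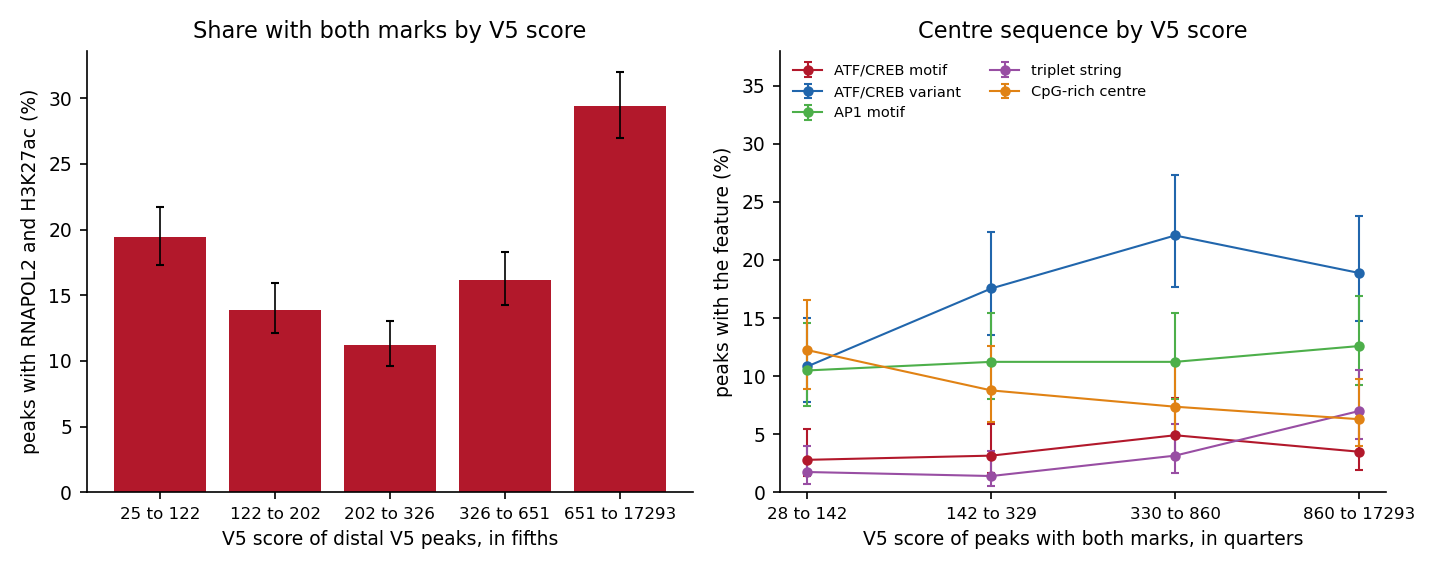
Left, share of distal V5 peaks that carried both marks, in 5 equal bins of the V5 score, from 19.4% in the lowest through 11.2% in the middle to 29.4% in the highest. Right, share of the 1142 triple sites with each centre sequence, in 4 equal bins of their V5 score. Bars and points are shares of peaks, error bars are 95% Wilson intervals, and the string share reached 6.99% in the highest bin.

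Within the triple sites, divided into 4 bins of equal size, shares are given as a description with no test. Variants of the palindrome were in 10.8% of the lowest bin (7.74 to 14.97), then 17.5%, 22.1% and, in the highest bin, 18.9% (14.8 to 23.8), whose interval overlaps that of the lowest. Strings were in 1.75% of the lowest bin (0.749 to 4.03) and 6.99% of the highest (4.57 to 10.6). The full palindrome ranged from 2.80% to 4.91% and the AP1 motif from 10.5% to 12.6%, with intervals that overlapped between all bins. A CpG-rich centre was in 12.2% of the lowest bin (8.93 to 16.5) and 6.29% of the highest (4.02 to 9.73).

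The polymerase and acetylation peaks at the triple sites differed in strength. Their RNAPOL2 scores ranged from 25 to 6995 with a median of 107, and 75.5% of the sites (862) lay under the median of all RNAPOL2 peaks, which was 246. Their H3K27ac scores ranged from 34 to 8737 with a median of 584.5, and only 14.4% (164) lay under the list median of 212. H3K27ac peaks at triple sites had a median width of 3650 bp, and those at H3K27ac-only sites 1580 bp with a median score of 150. These values chose the sites or stand beside the rule and were not tested. Of the V5 peaks, 91.1% (1040) lay entirely within an H3K27ac peak and 42.2% (482) within an RNAPOL2 peak.

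V5 score was only weakly correlated with the score of either mark. Spearman's rho over the 1142 sites was -0.0664 between V5 and RNAPOL2 scores and 0.0768 between V5 and H3K27ac scores, and 0.443 between RNAPOL2 and H3K27ac scores. Sites in one broad peak share its score, since the 1142 sites lay on 1080 RNAPOL2 and 1020 H3K27ac peaks, so these correlations are descriptions.

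**Figure D2:**
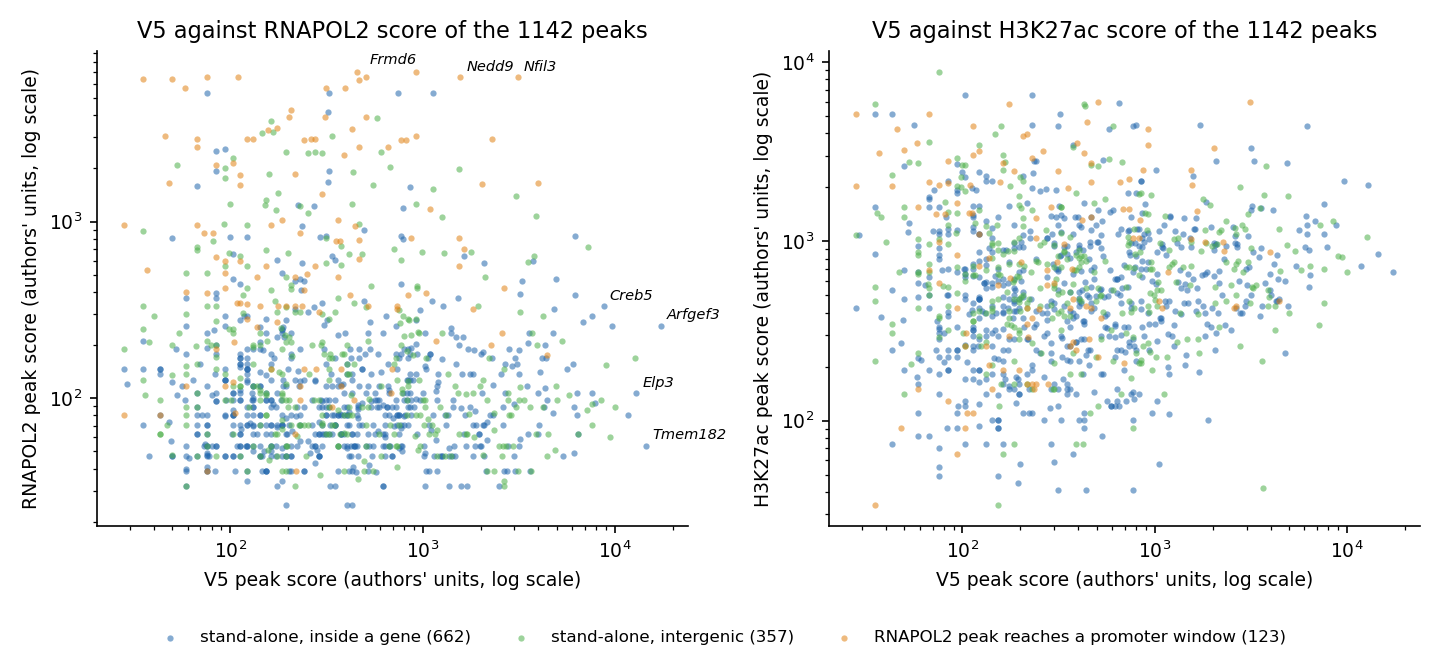
Scores of the 1142 triple sites on log axes, V5 against RNAPOL2 (left) and against H3K27ac (right), with 1 point per site coloured by position. Sites of the highest V5 score such as Arfgef3 and Tmem182 had RNAPOL2 scores of 258 and 54, and the highest RNAPOL2 scores, at Frmd6, Nedd9 and Nfil3, were reached in peaks that extend from a promoter.

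The sites fell into 3 kinds by position. In 123 (10.8%) the RNAPOL2 peak itself reached into a promoter window, with a median RNAPOL2 width of 12240 bp and a median score of 614. In 662 (58.0%) the RNAPOL2 peak stood apart from promoters and the middle of the V5 peak lay inside a gene, with a median RNAPOL2 score of 89. In 357 (31.3%) the RNAPOL2 peak stood apart from promoters and the middle of the V5 peak lay between genes, with a median RNAPOL2 score of 117. Median V5 scores were 230, 351 and 338. Neither the RNAPOL2 nor the H3K27ac peak touched a promoter window at 903 sites (79.1%).

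The longest polymerase domain covered a whole gene. At Adgrd1, an adhesion G protein-coupled receptor gene, 1 RNAPOL2 peak of 114 kb (chr5:129096361-129210090, score 2936) held 6 triple sites with V5 scores from 67 to 2297. At Nedd9, a scaffold of focal adhesions, a 52.96 kb peak with a score of 6551 held 3 sites, of which the strongest scored 1571 for V5. At Nfil3, which encodes a leucine zipper transcription factor, a 22.1 kb peak with the same RNAPOL2 score held 2 sites with V5 scores of 3115 and 506. Frmd6 had the highest RNAPOL2 score, 6995, over 21.1 kb and 2 sites. The RNAPOL2 peaks at the 10 sites with the highest V5 scores were all shorter than these domains. Arfgef3, Aagab and Creb5 had peaks of 10280, 3690 and 900 bp, with scores of 258, 258 and 331, above the list median of 246. The others scored under that median, as did 75.5% of all triple sites. Tmem182 had one of 800 bp with a score of 54, Elp3 one of 3300 bp with a score of 107, and Magi1, 347278 bp from the nearest coding TSS, one of 700 bp with a score of 89.

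The highest H3K27ac score, 8737, belonged to an intergenic site 5379 bp upstream of Actg1, the cytoplasmic gamma actin gene, where V5 scored only 76 and RNAPOL2 212. Next came a pair of intronic sites of Sulf2, an extracellular heparan sulfatase gene, which shared an H3K27ac peak with a score of 6505 and had V5 scores of 230 and 103. At Rgs2, a regulator of G protein signalling, an exonic site had an RNAPOL2 score of 6381, an H3K27ac score of only 34 and a V5 score of 35.

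The middle of the peak lay in a gene at 65.8% of the triple sites (752; 63.05 to 68.5), in an intron at 58.0% (662) and in an exon at 7.88% (90). Of the H3K27ac-only sites 53.1% were inside a gene (odds ratio 1.70, 1.47 to 1.96, adjusted exact p = 7.36e-13), and of the sites with neither mark 47.4%. The distal overlaps of RNAPOL2 and H3K27ac that touched no V5 peak, 1779 regions, gave 67.2%, and the difference from the triple sites did not pass the threshold (odds ratio 0.940, 0.803 to 1.10, adjusted exact p = 0.445). Both comparisons changed when the weaker RNAPOL2 and H3K27ac peaks were left out. In the strong-mark sets 51.1% of the triple sites and 52.4% of the H3K27ac-only sites were inside a gene (odds ratio 0.951, 0.725 to 1.25, adjusted exact p = 0.729). Against regions without V5 with marks of that strength, the odds ratio was 1.71 (adjusted exact p = 0.00708).

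Triple sites lay nearer to genes than other distal V5 sites. The median distance from the peak middle to the nearest TSS of a protein-coding gene was 18973.5 bp, compared with 37695 bp at H3K27ac-only sites and 60408 bp at sites with neither mark. A coding TSS lay within 20 kb of 52.0% of the triple sites (594; 49.1 to 54.9) and of 31.2% of the H3K27ac-only sites (29.5 to 33.0; odds ratio 2.39, 2.07 to 2.75, adjusted exact p = 1.4e-32). The odds ratio stayed between 2.01 and 2.65 in the 12 alternatives run. More than 100 kb separated 9.37% of the triple sites (107) from any coding TSS.

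The nearest coding gene was more often itself bound at its promoter. It had a V5 promoter peak at 58.5% of the triple sites (668; 55.6 to 61.3) and at 44.6% of the H3K27ac-only sites (42.7 to 46.5; odds ratio 1.75, 1.52 to 2.01, adjusted exact p = 1.08e-14). It had an RNAPOL2 promoter peak at 89.1% of the triple sites, 78.2% of the H3K27ac-only sites and 67.6% of the sites with neither mark, and promoter peaks of all 3 proteins at 56.9%, 42.0% and 32.9%. The site's own RNAPOL2 peak touched a promoter window at 123 triple sites, and its own H3K27ac peak at 201. The RNAPOL2 shares and those of all 3 proteins are thus partly set by the rule and were not tested. Another V5 peak lay close by, within the usual enhancer stitching distance of just over 12 kb, at 67.7% of the triple sites (773; 64.9 to 70.3) and at 52.4% of the H3K27ac-only sites (50.5 to 54.2; odds ratio 1.91, 1.65 to 2.202, adjusted exact p = 4.89e-18). In the strong-mark sets these 2 odds ratios were 1.60 and 1.39 (adjusted exact p = 0.00344 and 0.0344).

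**Figure D3:**
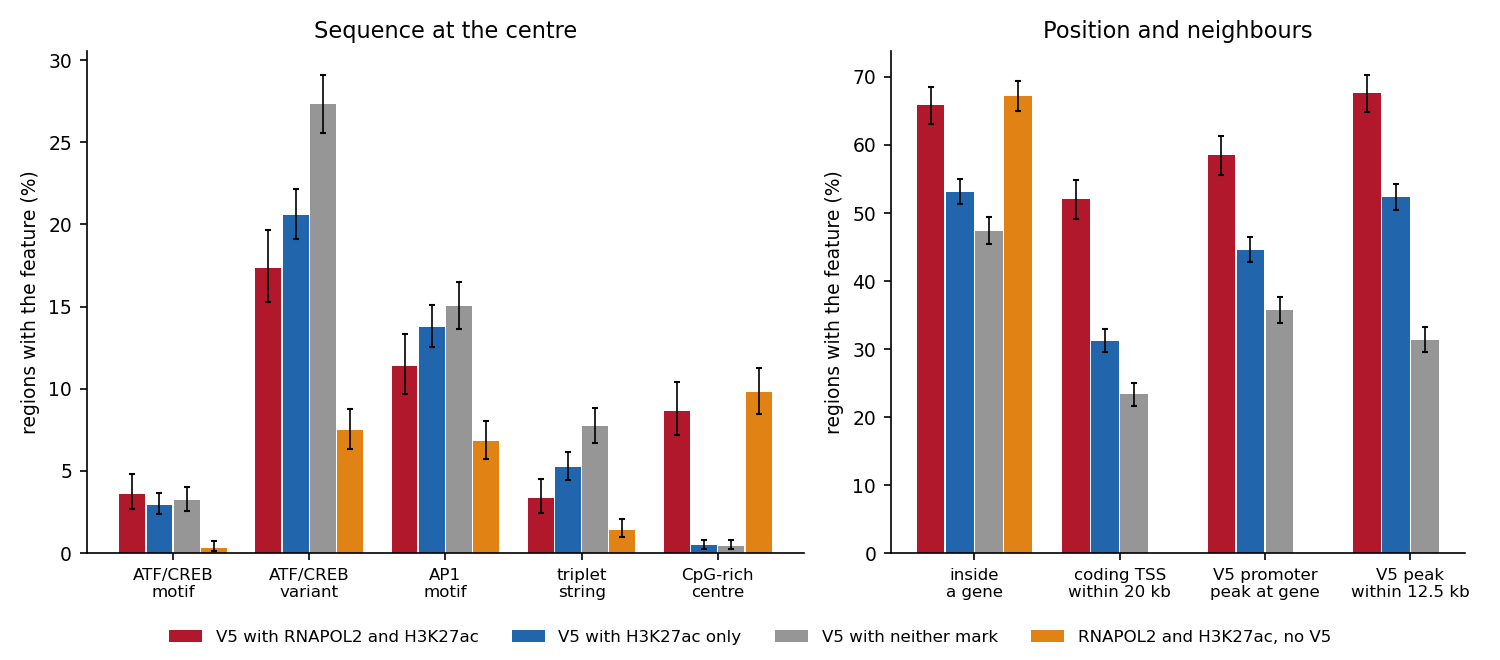
Share of regions with each feature among the 1142 triple sites, the 2740 V5 sites with H3K27ac only, the 2421 with neither mark and, where measured, the 1779 distal RNAPOL2 and H3K27ac overlaps without V5. Bars are percentages of regions and error bars 95% Wilson intervals. CpG-rich centres were at 8.67% of the triple sites, 9.78% of the regions without V5 and 0.474% of the sites with H3K27ac only.

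Motifs were more frequent at the V5 peak middles of the triple sites than at regions with the same marks and no V5 peak. Those regions were measured at the middle of the overlap of the marks, which is not the centre of a V5 peak. The part of this choice in the ratios was not tested. TGACGTCA lay within 100 bp of the middle in 3.59% of the triple sites (41; 2.66 to 4.83), 3.19% of all distal V5 peaks, 0.337% of the regions without V5 (6; 0.155 to 0.734) and 0.105% of all 200-bp windows of the genome. The odds ratio against regions without V5 was 11.004 (4.66 to 26.004, adjusted exact p = 1.81e-11). Against H3K27ac-only sites, with 2.96%, no difference was detected (odds ratio 1.22, 0.834 to 1.79, adjusted exact p = 0.351), although the interval allows a ratio of up to 1.79. In the strong-mark sets the motif was more frequent at triple sites than at H3K27ac-only sites, 5.64% against 2.49% (odds ratio 2.34, 1.21 to 4.53, adjusted exact p = 0.0256).

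Variants of the form TGANNTCA lay in the central 200 bp of 17.3% of the triple sites (198; 15.3 to 19.6), compared with 22.6% of all distal V5 peaks, 7.48% of the regions without V5 (odds ratio 2.60, 2.05 to 3.28, adjusted exact p = 2.95e-15) and 8.80% of genome windows. H3K27ac-only sites had 20.6% (odds ratio 0.809, 0.677 to 0.968, adjusted exact p = 0.0281), a call that was lost in 8 of the 14 alternatives. Among the interior dinucleotides, TGACATCA with its complement was the most frequent variant. It was in 5.52% of the triple sites (63), 8.50% of the H3K27ac-only sites and 13.9% of the sites with neither mark.

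The AP1 motif was in 11.4% of the triple sites (130; 9.67 to 13.4), beside 13.8% of all distal V5 peaks, 6.80% of the regions without V5 (odds ratio 1.76, 1.36 to 2.28, adjusted exact p = 5e-05) and 3.10% of genome windows. Against the 13.8% of the H3K27ac-only sites the difference did not pass the threshold (odds ratio 0.805, 0.651 to 0.996, adjusted exact p = 0.0579). It did in the strong-mark sets (odds ratio 0.504, adjusted exact p = 0.00784) and with starts of coding genes only (0.780, adjusted exact p = 0.0172). Strings were in 3.33% of the triple sites (38; 2.43 to 4.53), beside 5.86% of all distal V5 peaks, 1.41% of the regions without V5 (odds ratio 2.41, 1.45 to 4.02, adjusted exact p = 0.001) and 1.65% of genome windows. They were more frequent at H3K27ac-only sites, with 5.26% (odds ratio 0.621, 0.431 to 0.893, adjusted exact p = 0.014). That call was lost in 4 of the 14 alternatives, with odds ratios from 0.627 to 0.789, and the ratio moved furthest, to 0.2001 (3 of 266 against 52 of 964, adjusted exact p = 0.00412), in the strong-mark sets. Against regions without V5, the upper 50% of both marks gave no call for the AP1 motif or strings (adjusted exact p = 0.250 and 0.266), and the central 100 bp none for strings (adjusted exact p = 0.0512). In the whole peak, 369 triple sites (32.3%) held none of these motifs, beside 28.1% of the H3K27ac-only sites and 28.7% of the sites with neither mark.

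The core TGACG, on either strand, was far more common than the palindrome that contains it. It was in the central 200 bp of 37.7% of the triple sites (430; 34.9 to 40.5), 37.0% of the H3K27ac-only sites (35.2 to 38.8), 40.6% of the sites with neither mark (38.6 to 42.5) and 12.1% of the regions without V5 (10.7 to 13.7). It was in 4.84% of all 200-bp windows of the genome. This word was chosen after other results had been seen, and its shares are a description. Regions without V5 were again measured at the middle of the overlap of the marks.

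**Figure D4:**
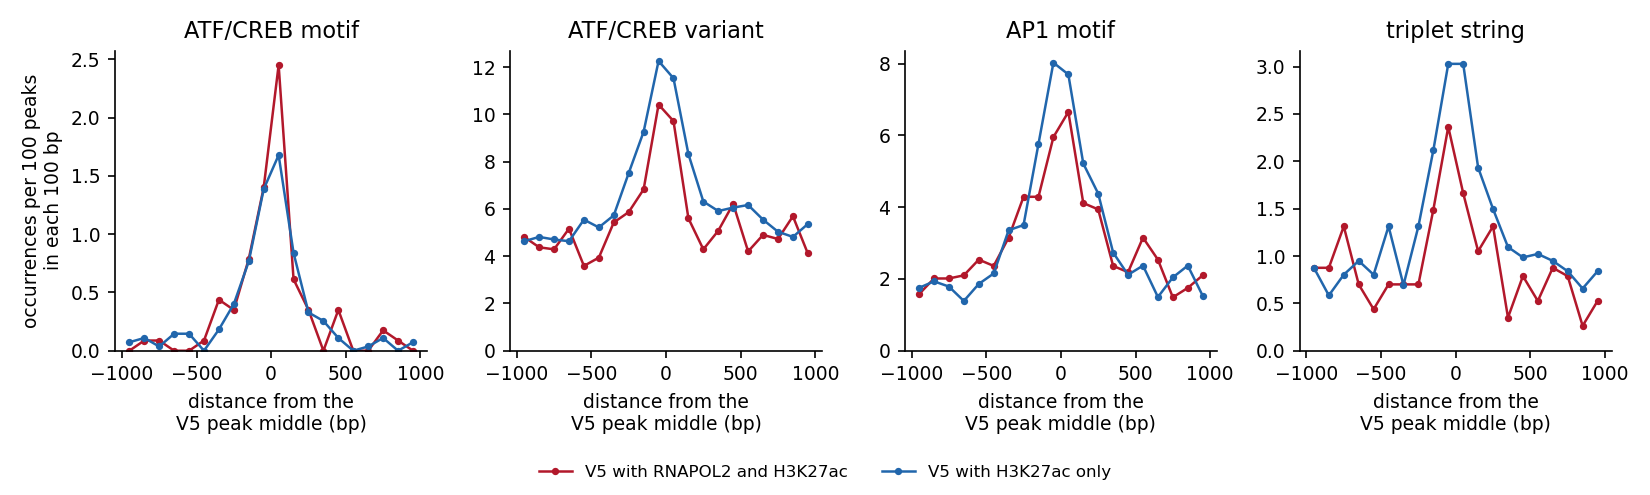
Occurrences per 100 peaks of each motif in bins of 100 bp around the V5 peak middle, at the 1142 triple sites and at the 2740 V5 sites with H3K27ac only. All 4 motifs were most frequent within 100 bp of the middle, where the ATF/CREB motif reached 2.45 occurrences per 100 triple sites in the highest bin and its variants 10.4.

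A CpG-rich centre, defined by a GC content of at least 50% and an observed to expected CpG ratio of at least 0.6 in the central 500 bp, gave the largest odds ratio of the 16 tests. It was found at 8.67% of them (99; 7.17 to 10.4), 1.96% of all distal V5 peaks, 0.474% of the H3K27ac-only sites (13; odds ratio 19.9, 11.1 to 35.7, adjusted exact p = 9.38e-39) and 0.454% of the sites with neither mark. In the strong-mark sets the share was 27.1% (72 of 266) against 0.415% (4 of 964). Regions with both marks and no V5 had 9.78%, from which the triple sites did not differ past the threshold (odds ratio 0.876, 0.676 to 1.13, adjusted exact p = 0.351). The share at triple sites was lower past the threshold with starts of coding genes only (odds ratio 0.756, adjusted exact p = 0.00658), with the upper 50% of V5 (0.667, adjusted exact p = 0.026) and with 1 peak per locus (0.667, adjusted exact p = 0.00759). Of the 99 sites, 78 lay between genes. A RefSeq gene start lay within 3 kb of 25 of them, and of 75 of all 1142 sites. With such sites removed from every class, the odds ratio against H3K27ac-only sites was 16.3 (8.80 to 30.1, adjusted exact p = 4.82e-28).

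The CpG-rich sites with the highest V5 scores lay near Afap1l1 (V5 score 4906), Nfatc1 (3771), Tns1 (3650) and Nr4a1 (3194). The last lay 7778 bp upstream of Nr4a1, an orphan nuclear receptor gene of the immediate early class (chr15:101245881-101247100, V5 score 3194, RNAPOL2 306, H3K27ac 559). Its central 200 bp (plus strand, GRCm38) is shown as an example of a CpG-rich centre, with the 23 CpG dinucleotides in capitals.
Nr4a1, chr15:101246391-101246590: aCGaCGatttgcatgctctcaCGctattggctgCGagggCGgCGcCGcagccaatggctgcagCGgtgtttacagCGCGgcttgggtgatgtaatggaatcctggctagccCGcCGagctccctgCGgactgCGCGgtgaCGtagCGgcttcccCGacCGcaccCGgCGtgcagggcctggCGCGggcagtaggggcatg

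Other CpG-rich sites lay near genes of the lists below. Fos, the AP1 subunit gene, had a CpG-rich site on each side of it, 18339 bp upstream (V5 score 483, RNAPOL2 657, H3K27ac 1623) and 11175 bp downstream of its TSS (V5 score 316, RNAPOL2 811, H3K27ac 825). Btg2, an antiproliferative early response gene, had one 14056 bp upstream of its TSS (V5 score 1790, RNAPOL2 671, H3K27ac 1728). The Btg2 site and the upstream Fos site were among the 25 with a RefSeq gene start within 3 kb. Klf4, a zinc finger gene, had one 118950 bp upstream (V5 score 551, RNAPOL2 1621, H3K27ac 1710). The core TGACG was in the centre of 47.5% of the CpG-rich triple sites (47 of 99; 37.9 to 57.2) and of 21.8% of the CpG-rich regions without V5 (38 of 174; 16.3 to 28.5).

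A tandem array supplied 16 of the 99 CpG-rich sites. Between Ezh2 and Pdia4 on chromosome 6, all 16 V5 peaks of the interval were triple sites, spaced by a median of 4340 bp, 8 on each side of an assembly gap of 50 kb. Each overlapped a copy of Rn4.5s, a small rodent RNA gene of 174 bp whose product is known as a transcript of RNA polymerase III. In 13 of the 16 sites the copy was at least 95% identical to the annotated gene, and the lowest identity was 89.1%. The annotated copy, which lay within the first peak, is shown whole (plus strand, GRCm38, no capitals) because it is the sequence whose copies these sites overlapped, 1 of them only in part.
Rn4.5s, chr6:47654921-47655094: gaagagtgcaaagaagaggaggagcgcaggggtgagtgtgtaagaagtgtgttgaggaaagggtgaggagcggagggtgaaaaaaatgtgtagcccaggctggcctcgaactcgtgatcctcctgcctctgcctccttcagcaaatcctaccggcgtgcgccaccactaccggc

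None of the 16 peaks held TGACGTCA, a variant, the AP1 motif or a string. Some did hold the core TGACG, which was in the centre of 47 of 99 CpG-rich sites with the array and of 40 of 83 without it. Their V5 scores ranged from 301 to 1291, their RNAPOL2 scores from 185 to 1525 and their H3K27ac scores from 210 to 1414. RNAPOL2 scores were between 185 and 431 left of the gap and between 208 and 1525 right of it, so the ranges overlapped. Between 90.4% and 100% of the 31-base words of each peak recurred elsewhere in the genome. Reads from identical stretches cannot be assigned to 1 copy, and which copies gave the signal cannot be told apart. Without the array, 1126 sites remained and 7.37% had a CpG-rich centre (odds ratio 16.7, 9.26 to 30.1, adjusted exact p = 1.93e-31 against H3K27ac-only sites). Against regions without V5, leaving out the array turned the CpG comparison into a called difference (odds ratio 0.734, 0.559 to 0.964, adjusted exact p = 0.0358).

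**Figure D5:**
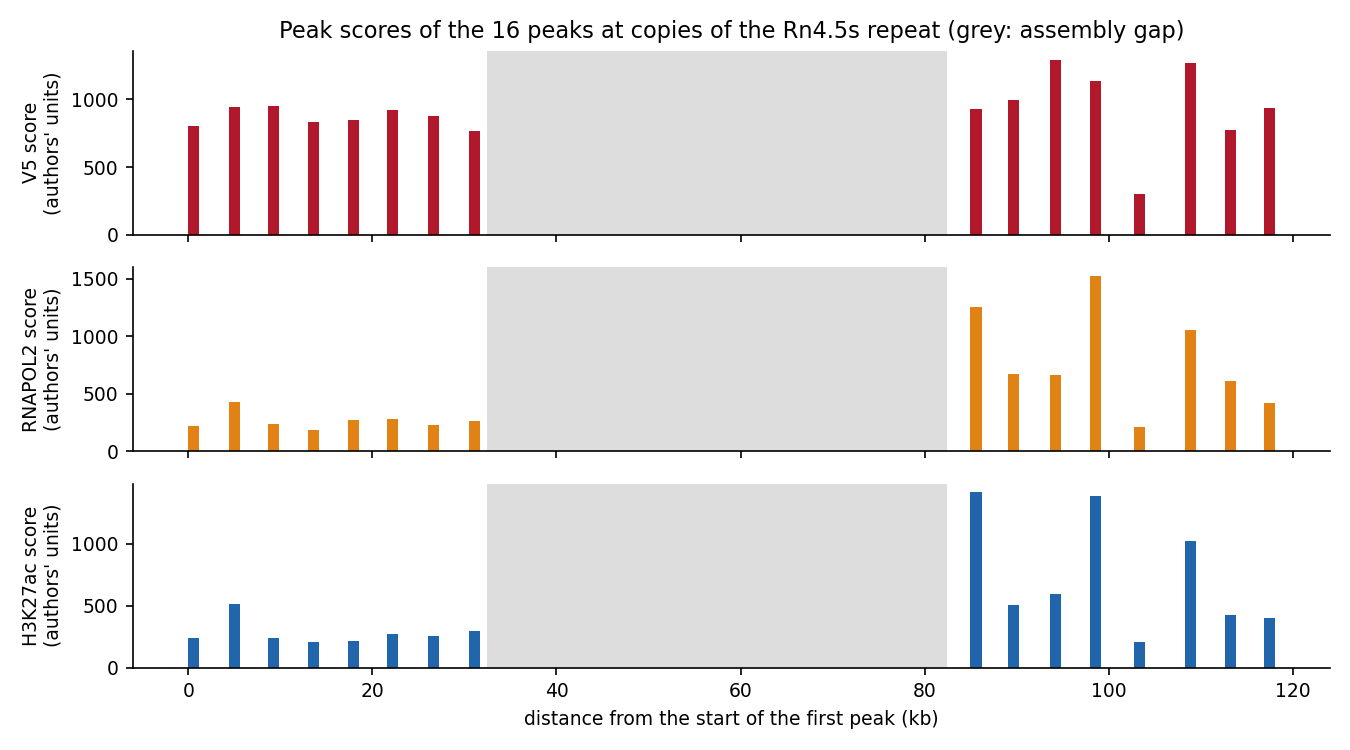
Scores of the 16 triple sites at copies of the Rn4.5s repeat, placed by their distance from the start of the first site, for V5, RNAPOL2 and H3K27ac. Bars are the authors' peak scores from 0, and the grey block is the assembly gap of 50 kb. V5 scores ranged from 301 to 1291, and 1 site right of the gap held the lowest.

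Elsewhere, 47 triple sites (4.12%), the 16 of the array included, had at least 50% of their 31-base words repeated in the genome, compared with 0.219% of the H3K27ac-only sites. Chromosome X held a single triple site, near Btbd35f6, of 65 V5 peaks, and 96.3% of its words were repeated.

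The triple sites formed 862 loci when sites within that stitching distance were joined, of which 680 held a single site and 61 held 3 or more. Outside the array the most sites in a locus were 6, reached in B4galnt3, a glycosyltransferase gene (V5 scores 84 to 1852), in Pxk (46 to 3550) and near Ppara (28 to 323). Counted over whole genes, Pde4d contained 17 triple sites with V5 scores from 103 to 4404, RNAPOL2 scores from 32 to 1022 and H3K27ac scores from 82 to 1040. Celf4 contained 13 (V5 scores 94 to 1587). Rab3c, a neighbour of Pde4d on chromosome 13, contained 11 (V5 scores 113 to 6779), and Pde10a, another cyclic nucleotide phosphodiesterase gene, contained 10 (V5 scores 76 to 3154). Myo1e contained 9, and Auh and Fndc3b 8 each. Gene length was not taken into account, and these counts were not tested.

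A triple site was nearest, within 500 kb, to 669 of 21938 coding genes (3.05%). Gene lists chosen with earlier results known are read beside that share, without a test. It covers all coding genes, with or without marks at their promoters. The lists were not counted for H3K27ac-only sites, so the counts below are not shown to be particular to triple sites. In the list of the CREB family and cyclic AMP signalling, 5 of 23 genes were nearest to a triple site. Creb5 had 4 sites, all intronic, with V5 scores of 8718, 1443, 1016 and 103. Pde4d, Pde10a, Pde4b and Creb3l2 were the others. Creb3l2 encodes a membrane-bound CREB relative, and its site had a V5 score of 694.

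Of 17 immediate early genes known as CREB targets, 6 were nearest to a triple site, Nr4a1, Sik1, Sik3, Ier3, Klf4 and Btg2. The Sik1 site, 41514 bp downstream of the TSS of this salt-inducible kinase gene, held TGACGTCA in its centre (V5 score 593, RNAPOL2 63, H3K27ac 321). A further Klf4 site lay 342720 bp upstream of the gene and was the stronger for V5 (V5 score 8432, RNAPOL2 98, H3K27ac 1300).

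Of 21 AP1 and stress leucine zipper genes, 5 were nearest to a triple site. Nfil3 had 5 sites. Its intronic sites had V5 scores of 3115 and 506, and its 3 upstream sites, from 88233 to 112853 bp away, had V5 scores of 608, 2825 and 7193 with RNAPOL2 scores of 117, 80 and 715. Bach1, a repressor of the heme and oxidative stress response, had 3, with V5 scores of 1031, 680 and 622. Fosl2 and Maff had 1 each and Fos 2.

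Of 14 feedback regulators of MAP kinase, 3 were nearest to a triple site. Dusp6, an ERK phosphatase gene, had 4 sites, of which 3 lay 7545 to 20005 bp upstream with V5 scores of 3057, 1259 and 2653 and RNAPOL2 scores of 89, 235 and 147. Dusp1 and Spred2 had 1 each, with V5 scores of 122 and 40. Of 20 neural crest and mesenchymal transcription factor genes, 3 were nearest to a triple site, Prrx1 (V5 score 693), Runx2 (V5 score 163) and Tcf4 with 4 sites.

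Of 12 cell cycle and p53 genes, Myc and Ccnd3 were nearest to a triple site. The 4 Myc sites lay in introns of the noncoding Pvt1 gene, 149849 to 216864 bp downstream of the Myc TSS, with V5 scores of 277, 756, 464 and 665. Of 15 matrix and adhesion genes, 4 were nearest to a site, and each was a collagen gene with no V5 promoter peak. Their V5 scores were 1684 at Col4a1, 153 at Col1a1, 113 at Col1a2 and 76 at Col3a1. None of 13 melanocyte and clear cell sarcoma markers, of 10 skeletal muscle genes or of 7 endothelial genes was nearest to a triple site. Of 8 immune genes, Laptm5, a lysosomal gene of blood cells, had 1 site with a V5 score of 185 and no V5 or RNAPOL2 promoter peak.

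The triple site nearest to a promoter window ended 3007 bp from a TSS near Gnai2, with a V5 score of 185. The nearest excluded site lay 2987 bp from a TSS of Nr2f2, with a V5 score of 50, followed by sites near Rapgef4 at 2983 bp (V5 score 2558) and Tbx15 at 2970 bp (V5 score 2223). The smallest overlap with RNAPOL2 was 20 bp, near Srrm1, and the smallest with H3K27ac was 20 bp, in an exon of Notch2 nearest to the start of Adam30. The H3K27ac-only site nearest to an RNAPOL2 peak missed it by 120 bp, in Dock9. Of the H3K27ac-only sites, 2.23% (61) had an RNAPOL2 peak within 1 kb.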

How the data were processed

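Chromatin from mCCS tumours was immunoprecipitated for V5, RNAPOL2 and H3K27ac and sequenced with input. The authors aligned reads to mm10 with BWA 0.7.10-r789, removed duplicates, called peaks with MACS2 2.2.6 against input (broad peaks for H3K27ac) and removed denylisted regions. The deposited files hold 1 list of intervals per antibody with a whole-number score, whose scale, like the way replicates entered the peak lists, is not given in the sources used here (an average over replicates is stated for signal tracks only). Read depth per sample is not in the lists, so the error of a single peak is unknown, and intervals on shares cover counting error of regions only.

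Peaks were intersected with each other (at least 1 bp) and with windows of 3 kb around 141730 transcript starts of GENCODE vM21. Distal V5 peaks with H3K27ac only, with neither mark, and distal overlaps of RNAPOL2 and H3K27ac without V5 were the comparison classes. V5 peaks were centred on their own middle, and the overlaps without V5 on the middle of the overlap. Motifs were searched on both strands of GRCm38 in the central 200 bp: TGACGTCA, TGANNTCA with any other interior (variant), TGAGTCA, and strings of more than 4 TGA or TCA triplets with gaps of at most 5 bp. Motifs could overlap, and a peak could count under several. Shares have 95% Wilson intervals. Classes were compared with 2-sided Fisher's exact tests, Benjamini-Hochberg adjusted over 16 tests at a threshold of 0.05 (Python 3.11.15, scipy 1.17.1). The functions were tested on simulated data. Repeated sequence was counted as 31-base words that recur in the genome.

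The peaks, motifs and gene lists were chosen with earlier results of these data known. The peaks named were the 10 highest by V5 score, the 5 highest by RNAPOL2 and by H3K27ac score, those nearest to listed genes, those in the loci with the most peaks and those at the thresholds of the rule. CpG-rich examples, the TGATG and TGACG words, the array, the lowest H3K27ac score and the longest domains were named after their values were seen. Alternatives varied the promoter window, the starts used, the overlap, the score, the locus and the motif window. A result for 1 gene is not reported here.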

Additional observations from a re-analysis of the deposited data

How the results depend on the processing

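No paired analysis was possible because each antibody has 1 list without values per sample, and for the same reason no replicate could be left out. Of the tested values recomputed under 10 alternatives, 120 kept both direction and call, 4 turned, 14 lost and 6 gained a call. Under the alternatives added after the data had been seen, 44 kept both, 2 turned, 3 lost and 3 gained a call. The causes of the changes were not tested. CpG-rich centres and nearness to a coding TSS against H3K27ac-only sites, and the palindrome and its variants against regions without V5, kept their calls in every alternative run (odds ratios 16.3 to 89.1, 2.01 to 2.65, 5.45 to 15.02 and 2.22 to 3.08, the palindrome range leaving out the upper 50% of both marks, where 15 of 266 sites met 0 of 253 regions).

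The share of distal V5 peaks that were triple sites was 19.4% with a window of 1 kb, 16.7% with 5 kb, 19.4% with starts of coding genes only, 16.02% with the middle base in both marks, 16.2% with 1 peak per locus and 16.4% with RNAPOL2 peaks off promoters. It was 4.20% (266 sites) for the upper 50% of both marks and 19.5% (682 sites) for the upper 50% of V5.

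With the upper 50% of both marks, 712 of the 1676 comparison sites with H3K27ac touched a weaker RNAPOL2 peak. Against all 1676 the odds ratios turned to 0.730 for a place inside a gene and 0.638 for a V5 score in the upper 25%, fell to 1.25 for a V5 promoter peak and 1.202 for another V5 peak nearby with the calls lost, and gained calls for the palindrome (2.51) and the AP1 motif (0.523). Against the 964 others they turned to 0.951, with no call, and 0.676, kept the calls for a V5 promoter peak and another V5 peak, and gained calls for the palindrome (2.34) and the AP1 motif (0.504). Against regions without V5 they turned to 1.71 inside a gene and lost calls for the AP1 motif (1.58) and strings (6.73, a ratio with a continuity correction for 3 of 266 against 0 of 253, interval 0.346 to 131). With 1 peak per locus the ratio inside a gene against regions without V5 turned to 1.06, with no call.

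Palindrome variants against H3K27ac-only sites lost their call with a window of 5 kb (0.829), the middle base in both marks (0.923, or 0.901 without the 75 comparison sites that touched RNAPOL2), the upper 50% of V5 (0.857), 1 peak per locus (0.860), the central 100 bp (0.791), the whole peak (0.875) and RefSeq starts added (0.835). Strings against the same sites lost it with the middle base (0.789 in both forms), the upper 50% of V5 (0.650) and the central 100 bp (0.627), and strings against regions without V5 with the central 100 bp (2.13). The AP1 motif against H3K27ac-only sites gained a call with starts of coding genes only (0.780). CpG-rich centres against regions without V5 gained one with starts of coding genes only (0.756), the upper 50% of V5 (0.667), 1 peak per locus (0.667) and the array left out (0.734).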
